A study of Homo sapiens with 6 samples.

Results

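The genes described here are 10 proteins of the endoplasmic reticulum (ER) lumen and membrane or their regulator: the reticulocalbin family members RCN1, RCN2, RCN3 and CALU, the chaperones HSPA5, HSP90B1, CALR and CANX, the disulfide isomerase PDIA4 and the transcription factor XBP1. They were taken from 59481 gene symbols on file by summing transcript counts per gene, and were selected on their CPM (counts scaled by library size) in BCSC against non-BCSC, the sorted groups described next. For that reason their levels and fold changes are given as a description with no test. Of the 10 genes, 9 were among the 20423 genes with enough counts to be tested, and RCN3 was not.

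RNA of paclitaxel (PTX)-resistant MDA-MB-231 cells, a human triple-negative breast cancer line, was sequenced after cells were separated on aldehyde dehydrogenase (ALDH) activity with the ALDEFLUOR assay and fluorescence-activated cell sorting, with propidium iodide to leave out dead cells. The 3 libraries titled BCSC (breast cancer stem-like cells, ALDH+) were compared with the 3 titled non-BCSC (ALDH-), and all 6 share the line and the drug resistance. All 6 carry one and the same cell type label, so the titles gave the groups. Nothing states that replicates were separate cultures or sorts, so any p-value measures the spread between these libraries, which may be technical.

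Proteins that enter the ER are folded by several systems. HSPA5 (BiP) and HSP90B1 (GRP94) bind exposed stretches of unfolded chains, CALR and CANX hold glycoproteins through their sugar chains, and disulfide isomerases such as PDIA4 form and rearrange cysteine bonds. Reticulocalbins and calumenin (CALU) are EF-hand proteins that bind calcium in the secretory pathway. When unfolded proteins accumulate, the sensors IRE1, PERK and ATF6 start the unfolded protein response, in which IRE1 cuts a short intron out of XBP1 mRNA and the spliced form codes for an active transcription factor.

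The promoters are shown first because several of these genes are known to share the ER stress response element (ERSE), a sequence bound by ATF6 together with NF-Y. The pattern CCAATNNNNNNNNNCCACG was searched on both strands in RefSeq promoter windows of GRCh38.p14, which run from 250 bases before to 50 bases after each annotated start. It was found in 27 of 35116 windows (0.0769%), which belong to 25 of 27305 symbols. All 10 genes matched a window, and 5 of the 10 held the pattern: HSPA5, HSP90B1, CALR, CANX and XBP1. It was not in the windows of RCN1, RCN2, RCN3, CALU or PDIA4, which says only that these letters are not there. The 250 bases before the start of HSPA5 (chr9:125241344-125241593, minus strand), HSP90B1 (chr12:103930160-103930409, plus strand) and, as a reticulocalbin without the pattern, RCN2 (chr15:76931499-76931748, plus strand) follow 5′ to 3′. Each exact match of the pattern is in capitals.
HSPA5: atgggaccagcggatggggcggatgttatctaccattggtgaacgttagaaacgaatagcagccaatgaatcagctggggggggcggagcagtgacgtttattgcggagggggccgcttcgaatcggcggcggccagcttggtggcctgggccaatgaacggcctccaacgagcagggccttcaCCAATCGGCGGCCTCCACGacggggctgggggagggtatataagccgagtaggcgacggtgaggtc
HSP90B1: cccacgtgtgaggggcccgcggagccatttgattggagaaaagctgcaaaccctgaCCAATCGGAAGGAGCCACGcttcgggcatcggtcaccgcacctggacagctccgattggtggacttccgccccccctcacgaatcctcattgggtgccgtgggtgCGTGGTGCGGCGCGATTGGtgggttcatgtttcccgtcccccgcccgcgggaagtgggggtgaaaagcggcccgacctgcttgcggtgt
RCN2: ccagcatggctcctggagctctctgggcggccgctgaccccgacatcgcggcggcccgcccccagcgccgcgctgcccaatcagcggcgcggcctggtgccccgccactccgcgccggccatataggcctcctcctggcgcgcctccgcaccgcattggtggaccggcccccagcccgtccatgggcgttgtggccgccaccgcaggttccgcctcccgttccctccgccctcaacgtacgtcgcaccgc

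HSPA5 held 1 exact match of the pattern, which begins 66 bases before the start. HSP90B1 held 2 in opposite orientations, beginning 194 and 89 bases before it. Sites that differ from the pattern in any fixed letter were not counted, so these are no counts of working elements. The sites of CALR (chr19:12938384-12938402), CANX (chr5:179698778-179698796) and XBP1 (chr22:28800603-28800621) are printed in the orientation of the pattern, with its fixed letters in capitals. The CALR site lies on the strand opposite to the gene, and the CANX site falls in 3 overlapping windows of that gene.
CALR: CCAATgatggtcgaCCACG
CANX: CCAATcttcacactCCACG
XBP1: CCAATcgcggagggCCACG

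**Figure D1:**
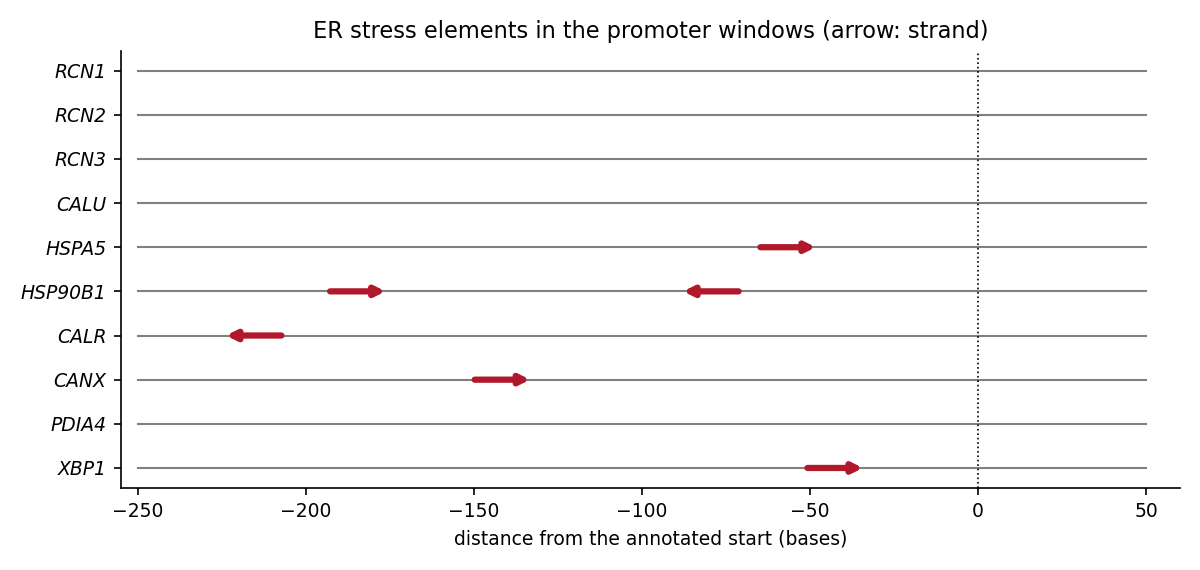
Positions of the ERSE pattern in 1 promoter window of each of the 10 genes, as distance from the annotated start in bases, with the arrow giving the strand relative to the gene. HSPA5, HSP90B1, CALR, CANX and XBP1 hold the pattern, HSP90B1 holds 2, and the other 5 windows hold none.

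Library totals ran from 15925943 to 21215352 counts in BCSC and from 9898588 to 12263667 in non-BCSC, so non-BCSC values rest on fewer reads, and replicates differed by more than counting noise (chi-square of 13.5 to 32.8 per degree of freedom). The mesenchymal markers VIM, CD44, AXL and CAV1 summed to 6309 to 7413 CPM in BCSC and 3988 to 5393 CPM in non-BCSC. The 6 luminal or epithelial markers summed to 81.0 to 93.2 and 103 to 141 CPM, with EPCAM at 0 counts in 2 BCSC libraries. They did not move as one. ESR1, PGR and CDH1 were lower in every BCSC library, and EPCAM and ERBB2 (54.7 to 70.3 against 65.1 to 85.6 CPM) overlapped. GATA3 was higher in every BCSC library (12.2 to 16.8 against 8.48 to 10.9 CPM). White blood cell markers summed to 0.197 to 1.45 against 14.2 to 23.1 CPM, and the endothelial marker CDH5 was at 18.5 to 33.8 against 44.6 to 87.8 CPM. Fibroblast markers summed to 2.61 to 6.11 against 11.7 to 25.5 CPM. Of these, DCN was separated (0.522 to 3.57 against 8.22 to 19.8 CPM) and PDGFRB overlapped (2.09 to 2.54 against 1.65 to 5.66 CPM). Of the genes that ALDEFLUOR activity is commonly tied to, the BCSC libraries held 0, 5 and 6 ALDH1A1 counts and the non-BCSC libraries 38, 28 and 32, and ALDH1A3 had 519, 467 and 553 against 285, 192 and 126. Across 395 olfactory receptor genes, which these cells are not known to use, counts summed to 37.6 to 147 CPM in BCSC and 522 to 1187 CPM in non-BCSC. The log2 fold change of all genes followed GC content (rank correlation 0.54 across genes, and genes are no independent replicates). The part of these markers, of background and of GC content in the differences below was not tested, and the genes described are given below with background removed and after a correction for GC content and length, while for other named genes the corrected value is given where it ends a pass, brings one or turns a direction. In bulk RNA, fewer cells of a type and less RNA per cell cannot be told apart.

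As a group, the 10 genes took 0.557%, 0.596% and 0.542% of all counts in the BCSC libraries, against 0.923%, 0.938% and 0.906% in the non-BCSC libraries. The means were 0.565% ± 0.0276 and 0.922% ± 0.0159 (SD, n = 3 each), and the groups did not overlap. In 6 of the 9 tested genes every BCSC library was below every non-BCSC library, in 0 every BCSC library was above, and in 3 the groups overlapped. Among all genes tested, 28% lay entirely below in BCSC and 24.2% entirely above. The median log2 fold change (BCSC over non-BCSC) was -0.49 over the 9 genes and -0.05 over all 20423.

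In the edgeR fit across all genes, 6 of the 9 were lower in BCSC at an adjusted p under 0.05, as were 14.7% of all genes, and 0 were higher, against 15.4% of all genes. With a fold above 2 also required, RCN2 and HSP90B1 (2 of 9) were past the threshold downward, against a background of 11.4%, and 0 upward, against 8.89%. Since the same comparison chose the genes, nothing is read from these counts. All 9 averaged at least 500 counts per library, and among the 5662 genes that did so 12.0% were lower and 30.1% higher at that adjusted p, 17.8% had BCSC entirely below, and the median log2 fold change was 0.18.

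**Figure D2:**
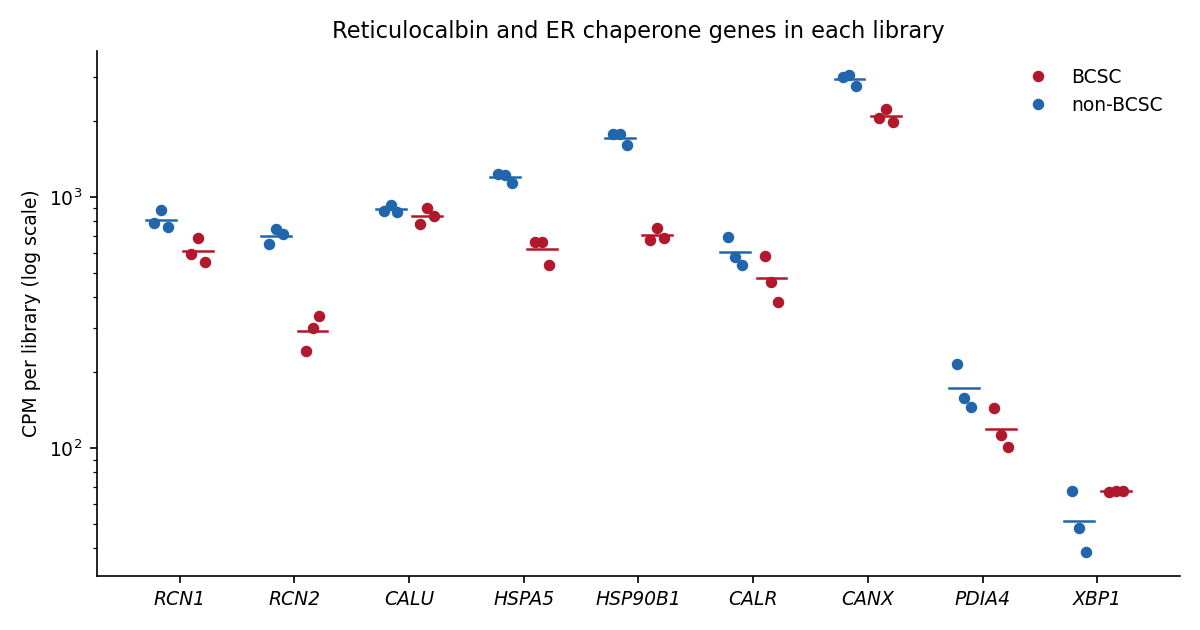
CPM of 9 genes in each of the 6 libraries (log axis), with blue points for non-BCSC, red points for BCSC and a bar at each group mean. RCN2, HSPA5 and HSP90B1 show the widest gaps between the groups, and CALU, CALR and XBP1 overlap.

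Among the reticulocalbins, RCN2 differed most. RCN2 (ENSG00000117906, chromosome 15) was at 243, 301 and 337 CPM in the BCSC libraries and 649, 746 and 710 CPM in the non-BCSC libraries. Its highest BCSC library stayed far below its lowest non-BCSC library, with a log2 fold change of -1.26 (SE 0.13), a mean 58.2% lower in BCSC. With background removed the value was -1.50 and after GC and length correction it was -0.61.

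RCN1 (ENSG00000049449, chromosome 11), the founding member of the family, was at 594, 686 and 550 CPM in the BCSC libraries and 790, 883 and 758 CPM in the non-BCSC libraries. The groups were 10.6% apart at their nearest libraries, and the log2 fold change was -0.41 (SE 0.11). It was -0.65 with background removed and turned to 0.38 after GC and length correction, a setting that put the median of all genes at 0.19. A processed copy of the gene, RCN1P2, held 713 counts in all, 1.21% of those of RCN1, and reads of the gene and its copy cannot be assigned with certainty.

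CALU (ENSG00000128595, chromosome 7), which also inhibits vitamin K-dependent carboxylation, was at 778, 904 and 841 CPM in the BCSC libraries and 880, 925 and 873 CPM in the non-BCSC libraries. The groups overlapped, and the log2 fold change was -0.09 (SE 0.09). It was -0.32 with background removed and 0.61 after GC and length correction.

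RCN3 (ENSG00000142552, chromosome 19), the remaining reticulocalbin, had 0, 3 and 0 counts in BCSC and 0 in every non-BCSC library. At 0 counts, up to 3 counts are allowed, or 0.142 to 0.304 CPM by library, so no difference was detectable at this depth. Such limits cover counting error only.

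The ratio of family members within a library does not depend on library scaling. RCN2 per count of CALU was 0.312, 0.333 and 0.401 in BCSC against 0.737, 0.806 and 0.813 in non-BCSC, while RCN1 per count of CALU was 0.763, 0.759 and 0.654 against 0.897, 0.955 and 0.869. Both ratios were lower in every BCSC library, and the gap was wider for RCN2. GC content of the counted transcripts was 40.2% for RCN2 and 40.6% for CALU, and after GC and length correction their log2 fold changes were -0.61 and 0.61.

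The chaperone HSP90B1 (ENSG00000166598, chromosome 12), the ER member of the HSP90 family, had the largest fold change of the 9, within its error of that of RCN2. It was at 674, 755 and 685 CPM in the BCSC libraries and 1773, 1778 and 1611 CPM in the non-BCSC libraries. The nearest libraries of the groups were 113% apart, and the log2 fold change was -1.29 (SE 0.09), a mean 59.1% lower in BCSC. It was -1.53 with background removed and -0.31 after GC and length correction. UQCC6 overlaps it on the opposite strand and held 805 counts, 0.847% of those of HSP90B1.

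HSPA5 (ENSG00000044574, chromosome 9), the Hsp70 of the ER and a repressor of the stress sensors while it is bound to them, was at 661, 659 and 534 CPM in the BCSC libraries and 1238, 1226 and 1141 CPM in the non-BCSC libraries. The groups lay 72.6% apart at their nearest libraries, and the log2 fold change was -0.96 (SE 0.10), just short of a fold of 2. It passed that fold without BCSC replicate 1 (-1.01), with RLE size factors (-1.05), with DESeq2 (-1.05), with a filter of 10 counts per library (-1.11) and with background removed (-1.20), and was -0.54 after GC and length correction.

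CANX (ENSG00000127022, chromosome 5), the membrane-bound lectin chaperone, was at 2058, 2229 and 1983 CPM in the BCSC libraries and 3006, 3069 and 2761 CPM in the non-BCSC libraries. Every BCSC library was below every non-BCSC library, by 23.9% at the nearest, and the log2 fold change was -0.49 (SE 0.09). It was -0.74 with background removed and 0.19 after GC and length correction, at the median of all genes under that setting.

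CALR (ENSG00000179218, chromosome 19), its soluble counterpart and a calcium store of the lumen, was at 580, 460 and 381 CPM in the BCSC libraries and 693, 577 and 536 CPM in the non-BCSC libraries. BCSC replicate 1 lay above 2 of the non-BCSC libraries, so the groups overlapped, and the log2 fold change was -0.35 (SE 0.16). CALR had the highest GC content of the 9 tested genes (53.8%), and its value was -0.59 with background removed and -0.91 after GC and length correction.

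PDIA4 (ENSG00000155660, chromosome 7), also called ERp72, was at 145, 113 and 101 CPM in the BCSC libraries and 216, 158 and 146 CPM in the non-BCSC libraries. The nearest libraries were 1.19% apart, and the log2 fold change was -0.54 (SE 0.18). At 52.0% GC content, it was -0.76 with background removed and -0.87 after GC and length correction.

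XBP1 (ENSG00000100219, chromosome 22), the transcription factor of the IRE1 branch, was the only one of the 9 with a higher mean in BCSC. It was at 66.9, 67.5 and 67.4 CPM in the BCSC libraries and 67.6, 48.0 and 38.6 CPM in the non-BCSC libraries. Non-BCSC replicate 1 was level with BCSC, so the groups overlapped, and the log2 fold change of 0.39 (SE 0.20) became 0.69 without that library. It was 0.20 with background removed and 0.50 after GC and length correction.

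Ratios between chaperones also separated the groups. HSP90B1 per count of CANX was 0.327, 0.339 and 0.345 in BCSC against 0.590, 0.579 and 0.583 in non-BCSC, and HSPA5 per count of CANX was 0.321, 0.295 and 0.269 against 0.412, 0.399 and 0.413. HSPA5 per count of HSP90B1 was higher in BCSC, at 0.981, 0.872 and 0.780 against 0.699, 0.689 and 0.708. The ratio of CALR to CANX overlapped, at 0.282, 0.206 and 0.192 against 0.231, 0.188 and 0.194. The counted transcripts of HSP90B1, CANX and HSPA5 had a GC content of 41.1%, 40.8% and 45.6%. After GC and length correction their log2 fold changes were -0.31, 0.19 and -0.54. The corrected value of HSPA5 was thus below that of HSP90B1, opposite to the direction of their count ratio.

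Levels between genes were compared as CPM per kilobase of the count-weighted mean transcript length. In non-BCSC the order was CANX (572 ± 31.5, SD, n = 3), HSP90B1 (524 ± 28.9), RCN1 (340 ± 27.3), CALR (318 ± 42.9), HSPA5 (281 ± 12.4), CALU (177 ± 5.59), RCN2 (126 ± 8.83), PDIA4 (62.3 ± 13.4) and XBP1 (27.6 ± 7.93). The ranges of CANX and HSP90B1, of RCN1 and CALR, and of CALR and HSPA5 overlapped, and the other neighbours did not. In BCSC the order was CANX (406 ± 24.5), RCN1 (256 ± 29.0), CALR (250 ± 52.9), HSP90B1 (215 ± 13.5), CALU (166 ± 12.4), HSPA5 (144 ± 17.0), RCN2 (52.8 ± 8.53), PDIA4 (42.9 ± 8.10) and XBP1 (36.1 ± 0.157). HSP90B1 was thus the second in non-BCSC and the fourth in BCSC, where RCN1, CALR and HSP90B1 overlapped with a neighbour, as did CALU with HSPA5 and RCN2 with PDIA4. Among all 20423 genes tested CANX ranked 46 and XBP1 2164 by this level over all libraries.

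**Figure D3:**
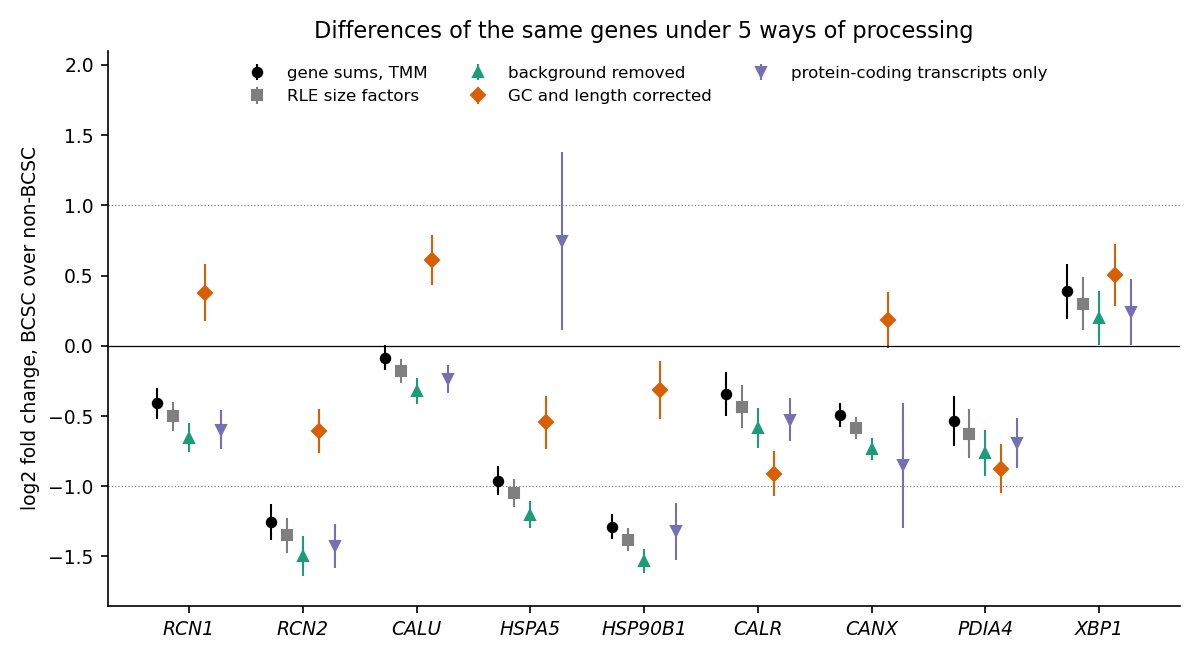
Log2 fold change (BCSC over non-BCSC) of the 9 genes with its SE (bars) under 5 ways of processing, with dotted lines at a fold of 2. RCN2, HSP90B1, CALR and PDIA4 stay below 0 under all 5, RCN1, CALU and CANX turn above 0 after GC and length correction, and HSPA5 turns above 0 when only protein-coding transcripts are summed.

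The deposited values are per transcript, so the forms behind each gene could be listed. RCN2-203, a form of 6218 bases, held 80.8% ± 10.1 of RCN2 counts in BCSC and 86.4% ± 6.2 in non-BCSC (SD, n = 3 each), and RCN1-201 held 83.2% ± 8.2 and 86.0% ± 11.1 of RCN1. For CALU, 2 protein-coding forms led, with CALU-201 at 59.0% ± 21.0 and 65.5% ± 15.1. CALR-201 held 97.8% ± 2.7 and 98.9% ± 1.0 of CALR, and PDIA4-204 held 90.5% ± 16.3 and 82.4% ± 30.3 of PDIA4. The shares of these leading forms overlapped between the groups for all 5 genes. Smaller forms of CALU and RCN1 were separated. CALU-203, a protein-coding form, held 20.1%, 5.87% and 8.17% of CALU in BCSC against 0%, 1.91% and 1.59% in non-BCSC. RCN1-204, a retained-intron form, held 4.27%, 4.43% and 8.35% of RCN1 against 0.606%, 2.02% and 4.05%. The other forms at 5% or more of these genes overlapped. The cause of these differences was not tested.

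The HSPA5, HSP90B1 and CANX counts were spread over many forms, with 7, 11 and 12 transcripts at 5% or more of the gene. HSPA5-201, the only protein-coding form with counts, held 13.7%, 45.0% and 74.9% of HSPA5 in BCSC against 8.05%, 9.45% and 18.2% in non-BCSC. The remaining HSPA5 counts, 55.4% ± 30.6 in BCSC and 88.1% ± 5.49 in non-BCSC, were on transcripts annotated as retained introns. Summed over the protein-coding form alone, the log2 fold change of HSPA5 was 0.75 (SE 0.63) in place of -0.96 for the gene sum. How reads were split among transcripts is not given in the sources used here, and its part in this value was not tested.

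For HSP90B1, the protein-coding share was 20.9% ± 5.13 in BCSC and 19.2% ± 3.15 in non-BCSC, and retained-intron forms held 56.6% ± 6.63 and 53.8% ± 6.35. These shares overlapped between the groups. For CANX, CANX-217, a retained-intron form, held 12.1%, 11.8% and 21.5% in BCSC and at most 0.0625% in non-BCSC, while CANX-215, annotated for nonsense-mediated decay, held 36.3% in non-BCSC replicate 3 and at most 1 count in each of the other 5 libraries. Single libraries thus decide several CANX forms, and the gene sums were used for the comparisons above.

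**Figure D4:**
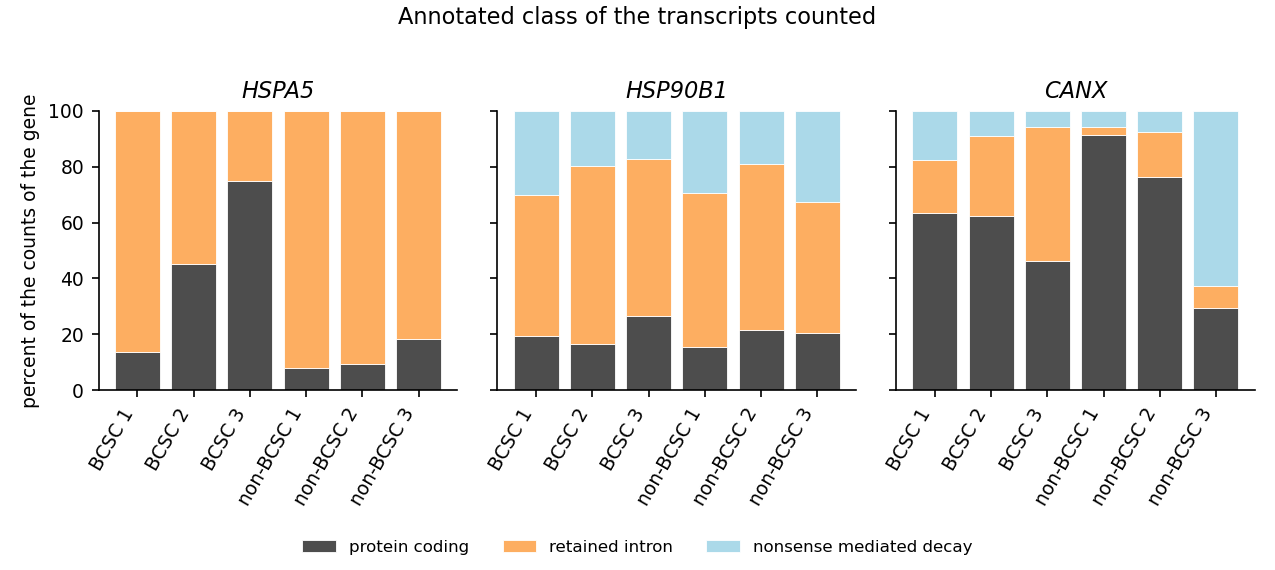
Share of the counts of HSPA5, HSP90B1 and CANX on transcripts annotated as protein coding, retained intron or nonsense-mediated decay, in percent, for each of the 6 libraries. The protein-coding share of HSPA5 runs from 13.7% to 74.9% within BCSC, and that of CANX is 29.5% in non-BCSC replicate 3.

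XBP1 was examined for the form made by IRE1. The intron that IRE1 removes is 26 bases long. Its placement in the annotation (GRCh37 chr22:29192116-29192141, minus strand) is printed in capitals with 17 bases on each side, 5′ to 3′. The bases that open it also follow it, so slightly shifted placements give the same joined sequence. The exact bases at which IRE1 cuts are therefore not fixed by this placement.
XBP1 intron: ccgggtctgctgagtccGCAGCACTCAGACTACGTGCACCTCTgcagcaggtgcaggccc

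XBP1-202, the annotated transcript that lacks these bases, had 0 counts in all 6 libraries, so up to 3 counts are possible in each. XBP1-201, which keeps them, had 1226, 831 and 444 counts in the BCSC libraries against 742, 510 and 314 in the non-BCSC ones. The split between forms this alike depends on the unstated assignment step, so no statement on the level of spliced XBP1 mRNA is drawn. In BCSC replicate 3, 521 of the counts (46.7%) were on XBP1-204, a form with 1 count in BCSC replicate 1 and 0 in the other 4 libraries.

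Other genes of the ER folding pathway were taken from 9 lists, and 113 of the 117 on file could be tested. At an adjusted p under 0.05 with a fold above 2 (edgeR, Benjamini-Hochberg over all genes), 18 of the 113 were higher in BCSC and 1 was lower, where 8.89% and 11.4% of all genes were. At the adjusted p alone, 28 were higher and 11 lower, where 15.4% and 14.7% of all genes were. The balance at the adjusted p moved with the processing, to 33 and 17 with the replicate number as a block and 27 and 23 with DESeq2. It was 25 and 24 with a filter of 10 counts per library and 55 and 6 after GC and length correction. With background removed it was 16 and 25, so more of these genes were lower than higher. Counts over all genes moved too, from 3136 higher and 2999 lower of 20423. They were 3813 and 3236 with the block, 3136 and 4604 with DESeq2, and 5095 and 2124 after the correction. With the filter they were 2547 and 2379 of 13220, and with background removed 2582 and 2246 of 16515. The median log2 fold change of the 113 was 0.11, against -0.49 for the 9 genes described. Since the 9 were chosen on this same comparison, nothing is read from that difference. Of the 18, 3 passed both criteria after GC and length correction and 9 with background removed, and without BCSC replicate 1 the number was 10. Of the 11 that were lower, 2 passed the adjusted p after GC and length correction, 5 had the opposite sign under it, and 11 passed with background removed.

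The protein disulfide isomerases and the partners of HSPA5 and HSP90B1 held most of the genes that fell. Among 12 disulfide isomerases and their oxidases, 4 fell and 0 rose at the adjusted p (median -0.05). PDIA6, which acts with HSPA5 and whose promoter holds an ERSE, was at 152 ± 7.15 CPM in BCSC and 305 ± 34.6 in non-BCSC. Its log2 fold change was -1.01 with an SE of 0.11 (adjusted p = 0.000589 in edgeR). PDIA3 (ERp57), which works with CALR and CANX, was at 327 ± 25.4 and 646 ± 65.8 CPM (log2 fold change -0.98 with an SE of 0.11, adjusted p = 0.000567 in edgeR). The oxidases ERO1A (-0.62) and ERO1B (-0.96), which recharge the isomerases, also fell. After GC and length correction the adjusted p of PDIA6 was 0.0811 (-0.44) and that of PDIA3 was 0.311 (-0.28). ERO1B was then at -0.09 and ERO1A turned to 0.26, and neither passed.

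Among 12 cochaperones, 3 fell and 1 rose (median -0.30). DNAJB11, which hands clients to HSPA5, was at 144 ± 20.3 CPM in BCSC and 282 ± 7.13 in non-BCSC (log2 fold change -0.97 with an SE of 0.12, adjusted p = 0.000871 in edgeR), and its value was -0.15 after GC and length correction. MANF, a secreted partner of HSPA5, was at 30.4 ± 3.06 and 54.7 ± 8.97 CPM (-0.85, SE 0.18, edgeR adjusted p = 0.00887), and its value was -0.87 after GC and length correction. SEC63 fell by 0.41 on the log2 scale, and HSPA13, another Hsp70 of this compartment, was higher by 0.49. After GC and length correction SEC63 turned to 0.24 and did not pass, and with background removed HSPA13 was at 0.25 and did not pass. HYOU1, the exchange factor of HSPA5, had a log2 fold change of -0.36 and did not pass (edgeR adjusted p = 0.243), but passed with the replicate block (edgeR adjusted p = 0.0223) and after GC and length correction (-1.09, edgeR adjusted p = 0.00158). DNAJB11, MANF and ERO1B were named after their values were seen.

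In the lectin cycle, 4 of 9 genes rose and 0 fell (median 0.19). GANAB, the catalytic subunit of glucosidase II, was at 248 ± 67.6 CPM in BCSC and 102 ± 19.0 in non-BCSC. Its log2 fold change was 1.28 with an SE of 0.20 (adjusted p = 0.00239 in edgeR). MOGS (1.92), which removes the first glucose, and the cargo receptor LMAN2 (1.09) rose, while LMAN1 (-0.31) and the folding sensor UGGT1 (0.08) did not pass. After GC and length correction GANAB was at 0.74 and passed the adjusted p, MOGS (0.59) and LMAN2 (0.05) did not, and LMAN1 turned to 0.65 and passed. With background removed, MOGS (2.85, edgeR adjusted p = 0.0663) and LMAN2 (0.91, edgeR adjusted p = 0.0507) did not pass.

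Among 14 other calcium-binding proteins and prolyl isomerases of the lumen, 4 rose and 0 fell (median 0.14). FKBP11 (1.56), FKBP10 (1.34) and the collagen chaperone SERPINH1 (1.29) passed with a fold above 2, and the abundant NUCB2 (-0.17) and PPIB (0.26) did not pass. Once corrected for GC content and length, FKBP11 kept its pass (1.31), FKBP10 (0.21) and SERPINH1 (0.21) did not pass, NUCB2 turned to 1.43 and passed, and PPIB turned to -0.27. SERPINH1 also did not pass without BCSC replicate 1, BCSC replicate 2, non-BCSC replicate 1 or non-BCSC replicate 3 (edgeR adjusted p = 0.0713 to 0.112). With background removed it was at 1.17 and did not pass (edgeR adjusted p = 0.0551).

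The list of 9 ER calcium pumps and channels split, with 4 up and 2 down (median 0.11). STIM1, the calcium sensor of the ER membrane, was at 74.1 ± 12.0 against 29.4 ± 3.73 CPM (log2 fold change 1.33 with an SE of 0.17, adjusted p = 0.00111 in edgeR), and its channel ORAI1 (2.42) and the release channel ITPR3 (1.32) also rose. The pump ATP2A2 rose by 0.38, TMCO1 (-0.23) did not pass, and ITPR1 (-0.89) and SARAF (-0.37), named after their values were seen, fell. Under the GC and length correction STIM1 (0.63) and ITPR3 (0.54) passed the adjusted p with a fold under 2, ORAI1 (edgeR adjusted p = 0.0835) did not pass, SARAF turned to 0.42, and TMCO1 turned to 1.16 and passed.

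Of 14 sensors and effectors of the unfolded protein response, 4 rose and 0 fell (median 0.62). ATF6B (1.70), PPP1R15A (1.36) and PPP1R15B (0.71) passed, and ATF4, the factor of the PERK branch, did not (0.26, edgeR adjusted p = 0.189). With the GC and length correction ATF6B was at 0.72, under a fold of 2, PPP1R15A (0.30) did not pass, PPP1R15B was at 1.23 and ATF4 turned to -0.31.

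Among 18 genes of ER-associated degradation, 7 rose and 0 fell (median 0.31), with the ubiquitin ligase SYVN1 at 1.51 and the VCP cofactor NPLOC4 at 1.12. SEL1L (-0.13) and VCP (0.30) did not pass, although VCP did with the replicate block (edgeR adjusted p = 0.0472). With GC content and length corrected, SYVN1 (0.48) and NPLOC4 (0.40) did not pass, and SEL1L turned to 0.54 and passed.

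In the translocon list, 3 of 15 rose and 1 fell (median -0.03). The channel subunits SEC61A1 (1.08) and SEC61B (1.19) rose, SSR3 (-0.30) fell, and SSR1 (-0.18) did not pass. SEC61B did not pass with background removed (1.03, edgeR adjusted p = 0.0528). It also did not pass without BCSC replicate 1 (edgeR adjusted p = 0.0801) or BCSC replicate 2 (edgeR adjusted p = 0.0682). SSR3 was at 0.62 after GC and length correction, past the threshold in the other direction (edgeR adjusted p = 0.0225), SSR1 turned to 0.36, and SEC61A1 was at 0.66. In the retention and export list, 1 of 10 rose and 1 fell (median -0.06), and KDELR2 (0.24), a receptor that returns ER proteins, did not pass. SEC24A (-0.30), a coat subunit that selects cargo for export, did not pass either, but passed with the replicate block (edgeR adjusted p = 0.0390). The same correction put KDELR2 at 1.08, past the adjusted p, and SEC24A at 0.37.

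**Figure D5:**
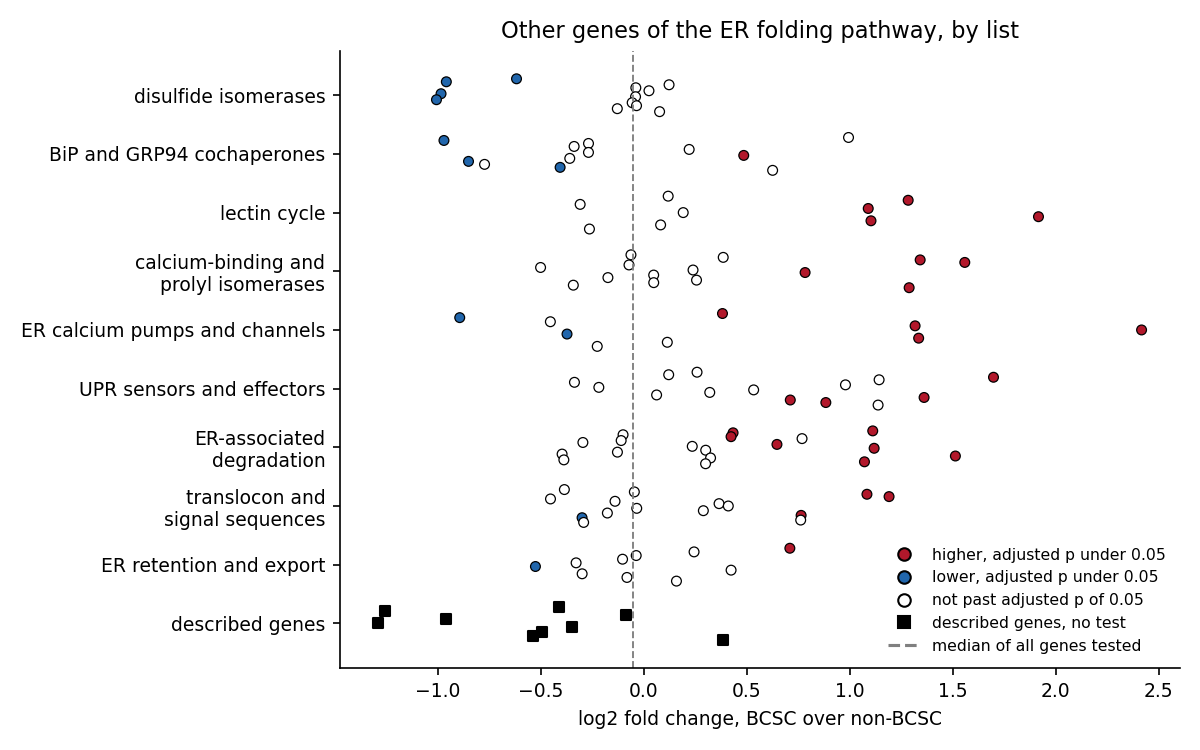
Log2 fold change (BCSC over non-BCSC) of 113 other ER genes by list, in red or blue where the edgeR adjusted p was under 0.05, and of the 9 genes described as black squares with no test. The 11 blue points fall mostly among the disulfide isomerases and cochaperones, and the dashed line marks the median of all genes tested, -0.05.

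The ERSE pattern was also searched for in the promoters of the other ER genes. It was present in 3 of the 99 that matched a window, CRELD2, ERO1B and PDIA6. Over the 8 ER genes that held it, log2 fold changes ran from -1.29 (HSP90B1) to 0.39 (XBP1). Between them were -1.01 (PDIA6), -0.96 (HSPA5), -0.96 (ERO1B), -0.49 (CANX), -0.35 (CALR) and 0.39 (CRELD2). CRELD2 (SE 0.38) did not pass (edgeR adjusted p = 0.470) and turned to -0.77 after GC and length correction. XBP1 (SE 0.20) overlapped between the groups, so no direction is read for either. Of the 8, 5 were among the genes chosen on these values, so nothing is drawn about the element. The related pattern ATTGGNCCACG was in 19 of 35116 windows (0.0541%), in 0 of the 10 genes described and in HERPUD1, HYOU1, NUCB1 and SDF2L1. Without correction or block, none of these last 4 passed an adjusted p of 0.05 (edgeR, 0.243 to 0.904), with log2 fold changes of 0.24, -0.36, 0.05 and -0.77. After GC and length correction HERPUD1 (1.01), HYOU1 (-1.09) and NUCB1 (-1.17) passed, and SDF2L1 (-2.18) did not.

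The genes whose log2 CPM over the 6 libraries ran most like RCN2, among 5661 others with a mean of at least 500 counts, were PLOD2, TTC3, ELOVL5, ACVR2A and NAP1L1, with Pearson correlations of 0.997 to 0.999. The libraries form 2 groups that differ in RCN2, so a gene that differs between the groups in the same direction gives a high value. PLOD2, a lysyl hydroxylase of collagen in the ER, had a log2 fold change of -0.67, about the middle of the 5, which ran from -1.08 (ACVR2A) to -0.36 (ELOVL5).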

How the data were processed

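RNA of 6 libraries, 3 BCSC and 3 non-BCSC, was sequenced with a protocol that per the labels marks the second cDNA strand with dUTP. Whether strand was used in counting is not stated, so genes that overlap, and pseudogene copies, are uncertain. The study's methods give alignment with HISAT2 to hg19, whereas the submitters' processing notes list HISAT2, featureCounts, DESeq2 and hg38. The authors deposited estimated counts per transcript in whole numbers, with no normalization, coordinates or gene names, and how reads were split among transcripts is not given in the sources used here. The 10 genes and all lists were chosen with earlier results of these data known.

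Of 252618 transcripts, 249787 (98.9%) matched GENCODE release 44 on GRCh37 by identifier and carried 99.7% to 99.8% of the counts of each library. Counts were summed per symbol and fitted in edgeR 4.0.16 (R 4.3.3) with TMM scaling, filterByExpr and a robust quasi-likelihood test with group as the term, with Benjamini-Hochberg adjustment over 20423 genes. A call needed an adjusted p under 0.05 and a fold above 2. CPM use TMM library sizes. The SE of an edgeR value is its absolute log2 fold change divided by the square root of its F statistic. The fit was tested on simulated data. Library totals were 9898588 to 21215352, so 0 counts allow up to 0.304 CPM.

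Named genes were the 10, in each list up to 3 called genes a direction with the smallest p and the 2 uncalled with the highest mean count, member transcripts with at least 5% of the counts, and the 5 genes most like RCN2. A listed gene that this rule names is not reported here. The alternatives were RLE size factors, DESeq2 1.42.0, other filters, no minimum fold, each replicate left out, a replicate block, loess correction on GC content and length (span 0.3), background per kilobase over olfactory receptor genes subtracted, and protein-coding transcripts alone. The main fit used no pairs. Replicate numbers in the titles were used as pairs in the replicate block only. Same-numbered libraries deviated together from their group means, with correlations of 0.279, 0.122 and 0.248 over 10469 genes. Between differently numbered libraries the correlations were -0.244 to -0.0024. Deviations from a group mean sum to 0, so these correlations depend on each other and are no test of pairing. No protein sequences were used here.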

Additional observations from a re-analysis of the deposited data

How the results depend on the processing

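Genes called higher over the whole table (1816) were 2829 after GC and length correction, 908 with protein-coding transcripts alone and 1796 with background removed. They were 3136 with no minimum fold and 961 to 2231 with 1 library left out. Genes called lower (2326) were 3523 with DESeq2, 2527 with RLE size factors, 2959 with no filter on low counts and 1813 after GC and length correction. They were 1180 with at least 10 counts in every library, 1090 with background removed, 735 with protein-coding transcripts and 1129 to 3022 with 1 library left out. Of the 9 genes described, 2 were past the threshold downward, 0 after GC and length correction, 6 with no minimum fold and 2 to 3 with 1 library left out, where HSPA5 joined without BCSC replicate 1. HSPA5 also made them 3 with RLE size factors, DESeq2, at least 10 counts or background removed.

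Among the other ER genes, the 18 called higher became 9 with background removed, 6 with protein-coding transcripts, 28 with no minimum fold and 10 to 20 with 1 library left out, the lowest without BCSC replicate 1. The number called lower, 1 (PDIA6), became 4 with RLE size factors and with DESeq2, 0 with no filter on low counts, 5 with at least 10 counts, 3 after GC and length correction, 6 with background removed, 3 with protein-coding transcripts, 11 with no minimum fold and 0 to 3 with 1 library left out, at 0 without BCSC replicate 2, non-BCSC replicate 1 or non-BCSC replicate 2. In those 3 fits PDIA6 stayed past the adjusted p (0.00467 to 0.00973) with a log2 fold change of -0.98 to -0.89. It was also not called without BCSC replicate 1 (-0.96), where PDIA3 was, nor after GC and length correction (-0.44, edgeR adjusted p = 0.0811), where HYOU1, SDF4 and NUCB1 were.

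The direction turned for RCN1 (0.38) and CANX (0.19) after GC and length correction, for CALU with no filter (0.010) and after that correction (0.61), and for HSPA5 with protein-coding transcripts alone (0.75). The cause was not tested. RCN2, HSP90B1, CALR, PDIA4 and XBP1 kept their direction in all 14 alternative fits, and the other 4 in all but those named. With the replicate block, 2012 genes were called higher and 2351 lower, 0 and 2 of the 9 genes described and 20 and 1 of the other ER genes, where CREB3 and WFS1 joined. At the adjusted p alone CALR made the lower genes described 7 in place of 6. The number was 4 without non-BCSC replicate 1 or 2 and after GC and length correction. The number higher at the adjusted p, 0 in the main fit, was 1 in 3 fits. These were no filter on low counts (4011 of 48740 genes higher), GC and length correction (5095 of 20423) and the fit without non-BCSC replicate 1 (3344 of 23951). Other calls of genes named in the report did not change with the block, apart from those given there.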
